A study of Mus musculus with 12 samples.

Results

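Gene expression in mouse embryonic stem (ES) cells that lack Dicer was compared with that of wild-type ES cells on 4 of the 12 Agilent 2-colour arrays of the series. These 4 arrays are the ones labelled as setting Dicer1-null 27G5 or 27H10 against wild-type cells. 27G5 and 27H10 are 2 Dicer1-null clones, and each shared an array with the wild-type RNA 2 times, with the dyes exchanged the second time. Both clones and the wild-type cells were grown with leukaemia inhibitory factor (LIF) on gelatin-coated plates and had no other treatment per the labels, which name no feeder layer, strain, passage or deleted part of Dicer1. The other 8 arrays held Dicer-null cells labelled as overexpressing DNA methyltransferases, and here they served to estimate the spread between ratios and, through a filter on dim probes, to decide which genes were tested.

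Every value below is a log2 ratio, Dicer-null over wild type, as the mean ± SD over the 2 clones (n = 2) unless it is called a level. A level is the log2 signal of 1 channel on 1 array, and it is compared only with the other channel at the same probe. Where 4 levels are given, the first pair come from the 27G5 arrays and the second pair from the 27H10 arrays. Calls were made with limma at a Benjamini-Hochberg adjusted p under 0.05 over all 19323 genes tested, and "rose" and "fell" are used of called genes alone. The clone was the replicate. Both clones were set against the same wild-type RNA, which counts as 1 control sample, so its own spread is not in p, and the labels name no separate cultures. Remarks below that levels did not overlap concern genes already called, and how many of all genes share this was not counted. All 4 arrays lay on 1 slide. The median signal was 245 to 287 in red and 128 to 135 in green, and 61.4% to 68.6% of probes were well above background in either channel. The arrays measured RNA of whole cultures, in which fewer cells of a type and less RNA per cell cannot be told apart.

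Dicer is the nuclease that cuts hairpin precursors into mature microRNAs (miRNAs), short RNAs that guide Argonaute proteins to messenger RNAs. A miRNA pairs with its target mainly through its seed, a short run of bases near its 5′ end, and the paired mRNA is translated less and decays faster. In ES cells the miR-290 cluster, the miR-302 cluster and the miR-17 family hold nearly the same seed and promote rapid entry into S phase, whereas let-7 miRNAs belong mostly to differentiated cells.

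The mature sequences of the main families are shown because a later comparison turns on their seeds, which stand in capitals (bases 2 to 8). They come from RefSeq on build GRCm38.p6, whose table held 12 of the 13 miRNAs looked up.
miR-291a-3p (chr7:3218968-3218989): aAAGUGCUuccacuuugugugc
miR-294-3p (chr7:3220691-3220712): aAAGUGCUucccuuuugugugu
miR-295-3p (chr7:3220815-3220837): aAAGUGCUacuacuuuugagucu
miR-302b-3p (chr3:127545275-127545297): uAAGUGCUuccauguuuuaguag
miR-302d-3p (chr3:127545665-127545687): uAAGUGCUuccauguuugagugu
miR-290a-3p (chr7:3218674-3218697): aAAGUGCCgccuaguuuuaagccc
miR-17-5p (chr14:115043684-115043706): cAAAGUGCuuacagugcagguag
miR-20a-5p (chr14:115044183-115044205): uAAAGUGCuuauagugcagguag
miR-93-5p (chr5:138165574-138165596): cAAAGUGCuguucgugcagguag
miR-106b-5p (chr5:138165787-138165807): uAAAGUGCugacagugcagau
let-7a-5p (chr13:48538239-48538260): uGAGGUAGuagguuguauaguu
let-7g-5p (chr9:106178846-106178867): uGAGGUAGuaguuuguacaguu
The seeds fall into 3 main groups: AAGUGCU in miR-291a, miR-294, miR-295 and miR-302, AAAGUGC in the miR-17 family, and GAGGUAG in let-7. miR-290a ends its seed in C in place of U. Mature miRNAs are not measured here.

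Dicer1 itself was read by 2 probes on the minus strand of chromosome 12 (build mm7), and they gave different sizes of decrease. Both probe sequences are shown because they read different stretches of the transcript. Neither has a part in capitals.
Dicer1 probe at chr12:102216485-102216544: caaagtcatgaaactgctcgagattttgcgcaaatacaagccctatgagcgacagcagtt
Dicer1 probe at chr12:102186776-102188847: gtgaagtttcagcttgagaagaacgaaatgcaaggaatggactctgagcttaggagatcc
Both are 60 bases long and have 1 reading frame without a stop codon, and the second has a position that spans 2072 bases of the genome. Which probe lies in the deleted stretch is not stated in the labels. At the first, brighter probe the wild-type level was 11.16 and 10.94 on the arrays with 27G5 and 11.20 and 10.94 on those with 27H10, and the Dicer-null level was 10.43 and 10.66 in 27G5 and 10.60 and 10.42 in 27H10. All 4 null levels lay below all 4 wild-type levels, a ratio of -0.53 ± 0.04 (adjusted p = 0.0040). That call was lost when each RNA was counted as a sample (adjusted p = 0.081), a fit described below, and without the 27H10 ratio, which left -0.50 in 27G5. At the second probe the mean level fell from 10.88 to 6.80, a ratio of -4.13 in 27G5 and -4.02 in 27H10, or 16.8-fold. It stayed well above background on 4 of 4 arrays in both channels.

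Across the transcriptome the 2 cell types differed widely and about as often in each direction. Of the 19323 genes tested, 3947 rose (20.4%) and 3909 fell (20.2%), together 40.7%. Changes past 1 on the log2 scale were reached by 1097 genes that rose and 982 that fell, changes past 2 by 175 and 177, and changes past 3 by 18 and 28. The median over all genes was 0.01 in both clones, and the median SD between clones was 0.085. When the 7 RNAs of the series were each taken as a sample, with wild type as a single sample that varies like the others, 932 genes rose and 966 fell. For each gene list below, the number called is followed by the number called in that fit, a fit with each RNA a sample. Each count is to be read beside the shares of all genes, 20.4% that rose and 20.2% that fell. Counts from the fit with each RNA a sample stand beside 932 and 966 of 19323.

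**Figure D1:**
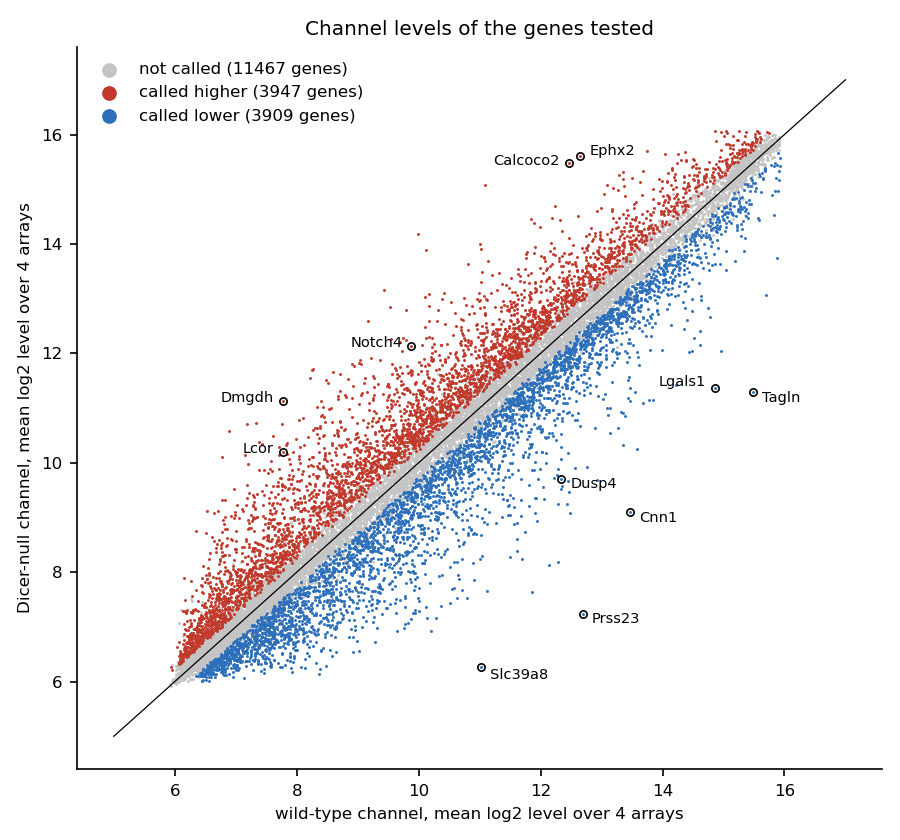
Mean log2 level over 4 arrays of each of the 19323 genes tested, with the wild-type channel on the x axis and the Dicer-null channel on the y axis. Red points are the 3947 genes that rose, blue points the 3909 that fell and grey points those not called, the line marks equal levels, and some genes are circled and labelled.

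Genes measured by a probe that holds a seed complement rose more often than genes as a whole. A seed complement is the stretch with which a seed can pair. No transcript sequences were used, so the search was made in the 60-base probe that measured each gene, printed in the sense of its transcript. The complement of the AAGUGCU seed, AGCACTT, stood in the probes of 119 genes (0.616% of those tested). Of these, 55 rose (46.2%), 17 fell (14.3%) and 47 were not called, with a median of 0.31 (0.30 in 27G5 and 0.28 in 27H10). The complement of the AAAGUGC seed, GCACTTT, stood in the probes of 106 genes, of which 45 rose (42.5%) and 13 fell (12.3%), with a median of 0.27. Both words share GCACTT, held by 308 probes, of which 114 rose (37%) and 39 fell (12.7%). All genes tested gave 20.4% and 20.2%, with a median of 0.01.

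Comparison words gave values close to those of all genes. The let-7 complement CTACCTC stood in 70 probes, of which 12 rose (17.1%) and 10 fell (14.3%), with a median of 0.02. AAGTGCT, which is AGCACTT read on the opposite strand, stood in 111 probes, of which 27 rose (24.3%) and 22 fell (19.8%), with a median of 0.04. Of all 9435 words of 7 bases found in the probes of at least 50 genes, AGCACTT ranked 1 both by the median and by the percentage that rose. GCACTTT ranked 2 by the median and 3 by the percentage, after TAAAGCC (42.7%). The probes with AGCACTT had the same median GC content as all probes (43.3%). These are descriptions without a test: the words were chosen with the ratios known, 45 genes hold both words, and where a word lies within its transcript was not examined. None (0) of the published miR-290 cluster targets discussed below was among the 180 genes with either word.

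**Figure D2:**
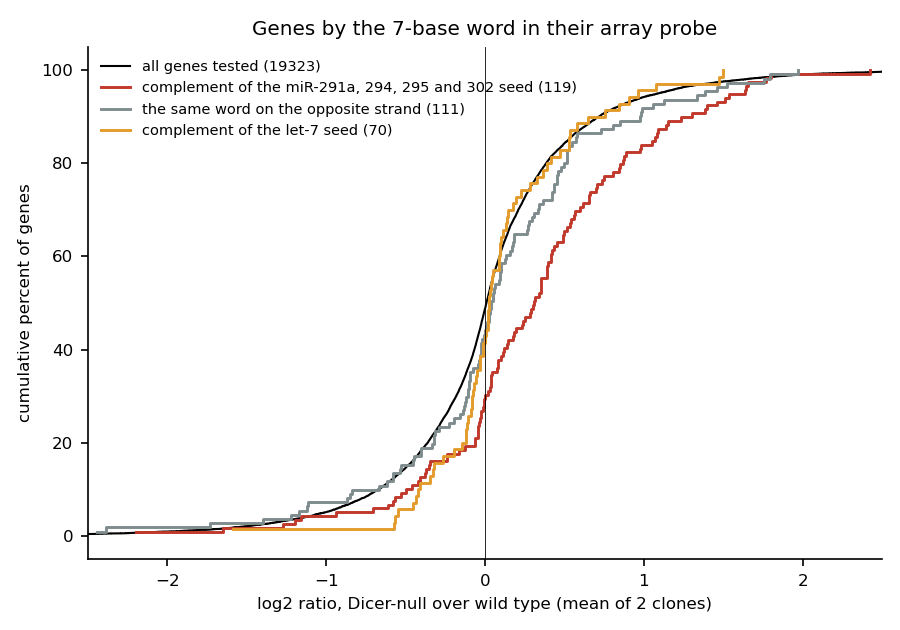
Cumulative percentage of genes (y axis) by log2 ratio, Dicer-null over wild type (x axis), for all 19323 genes and for the genes whose probe holds the complement of the miR-291a and miR-302 seed (119 genes), the same word on the opposite strand (111 genes) or the complement of the let-7 seed (70 genes). The curve of the first word lies to the right of the others over most of its length, with a median of 0.31 against 0.01 for all genes.

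The probes around AGCACTT are printed for 7 genes that rose, with the seed complement in capitals and the mm7 position of the whole probe.
Lcor (chr19:41461108-41461167): ttatgtagtagAGCACTTatgatcacacg
Txnrd3 (chr6:89750270-89750329): agagtgtAGCACTTatggatctgtg
Rab29 (chr1:131768302-131768361): aattaaaagtgAGCACTTgtgaaaa
Usp46 (chr5:73418687-73418746): gtgaagaggatAGCACTTtatctaggtga
Txnip (chr3:96435174-96435233): gtgatgttcttAGCACTTtagcttgtcaa
Vim (chr2:13521763-13521822): gaaagaagctcAGCACTTaacaact
Fzd10 (chr5:127839139-127839198): agtggtcttgaAGCACTTgggaag
Lcor, a nuclear receptor corepressor, had wild-type levels of 7.80, 7.75, 7.86 and 7.67 and Dicer-null levels of 10.21 and 10.17 in 27G5 and 10.17 and 10.22 in 27H10. The groups were far apart and the 4 null values lay within a narrow band, a ratio of 2.42 ± 0.01 (adjusted p = 0.000103), although 2 other Lcor probes read 0.42 and 1.84. Txnrd3, a thioredoxin reductase, rose by 1.80, the Rab GTPase gene Rab29 by 1.65, the deubiquitinase Usp46 by 1.64 and Txnip, an inhibitor of thioredoxin, by 1.64. Txnip lost its call with each RNA a sample and when either clone was left out (1.52 in 27G5 and 1.76 in 27H10), and Txnrd3 and Vim with each RNA a sample. The intermediate filament gene Vim rose by 1.39, with its null spot saturated on 2 of 4 arrays, and the Wnt receptor gene Fzd10 by 1.15. In all, 19 of the 119 genes rose by 1 or more and 5 fell by 1 or more.

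Genes that act with miRNAs moved in both directions. Of 29 measured genes of miRNA biogenesis and silencing, 7 rose and 4 fell (5 and 1 in the fit with each RNA a sample), with a median of -0.02 (-0.09 in 27G5 and 0.00 in 27H10). The share that rose, 24.1%, was near the 20.4% of all genes. Ago1, one of the Argonaute proteins that carry miRNAs, had wild-type levels between 9.52 and 9.75 and null levels of 11.39, 11.23, 11.44 and 11.30, with no overlap, a ratio of 1.72 ± 0.10 (adjusted p = 0.00069; other probes 0.33 and 1.26). The other Argonautes Ago2, Ago3 and Ago4 were not called, at -0.12, 0.26 and -0.02, with other Ago2 probes at 0.53 to 0.70. All 3 GW182 genes, whose proteins link Argonaute to mRNA decay, rose: Tnrc6b by 1.33 ± 0.24 (other probes 0.27 to 0.75), Tnrc6a by 0.92 ± 0.03 and Tnrc6c by 0.91 ± 0.20. Mov10, a helicase that binds Argonaute, rose by 1.90 ± 0.09. On the processing side, the nuclear nuclease gene Drosha and its partner Dgcr8 were not called, at 0.00 (saturated on 2 of 4 arrays in each channel) and -0.17, and the precursor exporter gene Xpo5 rose by 0.38 ± 0.02 at its brightest probe, with other probes at -0.33, -0.02 and -0.12. That call was lost when either clone was left out (0.40 in 27G5 and 0.37 in 27H10), and the sign turned as a mean over probes (-0.02). Lin28a, an RNA-binding protein that blocks let-7 maturation, fell from wild-type levels of 12.84 to 12.98 to null levels of 9.54 to 9.84, a ratio of -3.24 ± 0.03 (adjusted p = 0.00013).

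Published miR-290 cluster targets were higher as a rule. Of 16 measured, 10 rose (62.5%) and 3 fell (18.75%), against 20.4% and 20.2% of all genes, with a median of 1.26. With each RNA a sample 6 rose and 1 fell. How each target was first found was not examined, so the rise of this list is a description and not an independent test. Rbl2, a retinoblastoma-family repressor, had wild-type levels of 8.13, 8.35, 8.15 and 8.38 and null levels of 10.27 and 9.87 in 27G5 and 10.21 and 10.07 in 27H10. Every null level was above every wild-type level, a ratio of 1.85 ± 0.03 (1.29 at a second probe). The orphan nuclear receptor gene Nr2f2 rose by 2.55 ± 0.17 (1.44 at a second probe), the Nodal inhibitors Lefty1 and Lefty2 by 1.97 ± 0.08 and 1.80 ± 0.07, and Ei24, an apoptosis-linked gene, by 1.61 ± 0.11. The null spot was saturated on 1 array for Lefty1 and on 2 for Ei24. The Hippo kinase gene Lats2, the cell-cycle inhibitor gene Cdkn1a and the caspase gene Casp2 rose by 1.43 ± 0.35, 1.32 ± 0.28 and 1.19 ± 0.01, with other Lats2 probes at 0.81, 1.38 and 0.43. Irf2, an interferon regulatory factor, rose by 1.19 in 27G5 and 2.10 in 27H10. Members that fell were Dkk1, a secreted Wnt inhibitor, at -1.31 ± 0.15 (second probe -0.64), the GTPase gene Rhoc at -0.85 ± 0.02, and Akt1. Of 23 measured let-7 targets, 6 rose and 9 fell (3 and 4 with each RNA a sample), with a median of -0.21 (-0.35 in 27G5 and -0.25 in 27H10). Lefty2, Lats2, Irf2, Dkk1 and Akt1 lost the call with each RNA a sample. Dkk1 also lost it when either clone was left out (-1.41 in 27G5 and -1.2 in 27H10), and Cdkn1a without 27H10, which left 1.12.

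**Figure D3:**
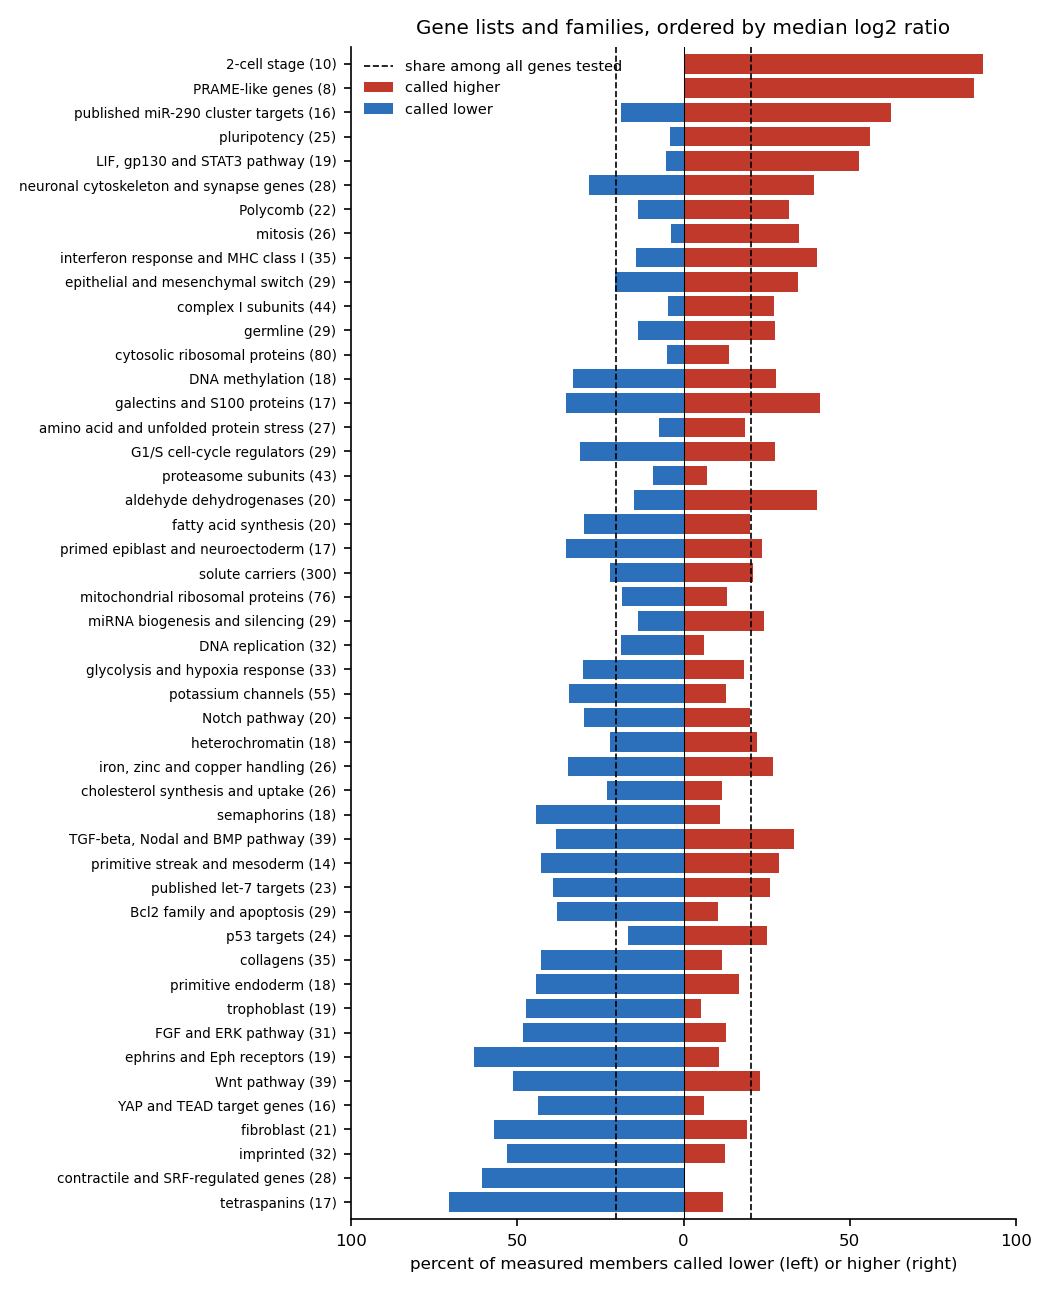
Percentage of the measured members of each gene list or family that rose (red, to the right) or fell (blue, to the left), ordered by median log2 ratio, with the number measured in brackets. Dashed lines mark the shares among all genes tested (20.4% and 20.2%).

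Both cell types had the markers of ES cells: 8 of 8 were well above background on every array in both channels. Pluripotency genes tended to be higher in the null cells, and LIF receptor and kinase genes with them. Of 25 measured pluripotency genes 14 rose and 1, Lin28a, fell (6 and 1 with each RNA a sample), with a median of 0.62. Klf4, a factor of the LIF-maintained state, had wild-type levels of 13.82, 13.96, 13.88 and 14.04 and null levels of 14.65 and 14.75 in 27G5 and 14.80 and 14.77 in 27H10. The shift was small but the groups did not overlap, a ratio of 0.82 ± 0.01 (adjusted p = 0.00086). The naive-state factors Tbx3, Nanog, Tfcp2l1 and Esrrb rose by 1.73 ± 0.15, 1.45 ± 0.26, 1.2 ± 0.13 and 0.71 ± 0.13, with a second Tbx3 probe at 0.53 and other Tfcp2l1 probes at 0.46 to 1.11. Klf2 rose too, but its spot was saturated on 4 of 4 arrays in null cells and 2 of 4 in wild type, and its second probe read 0.26. Tfcp2l1 and Esrrb lost the call with each RNA a sample. Pou5f1, the core factor Oct4, was not called, at 0.02 in 27G5 and 0.62 in 27H10, and its spot was saturated on 2 of 4 arrays in each channel.

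The LIF pathway acts through the receptor subunit gp130, Janus kinases and the factor Stat3 to hold ES cells undifferentiated. Of its 19 measured genes 10 rose and 1 fell, with a median of 0.59, but only 2 kept the call with each RNA a sample. Il6st, encoding gp130, had wild-type levels of 10.85 and 11.05 beside 27G5 and 10.84 and 11.10 beside 27H10, against null levels of 12.40, 12.24, 12.57 and 12.58. The lowest null level was above the highest wild-type level, a ratio of 1.49 ± 0.17 (adjusted p = 0.0012). The kinase gene Jak1 rose by 1.03 ± 0.02 and the LIF receptor gene Lifr by 0.64, a call lost without 27G5, which left 0.54. Stat3 was at 0.33 (adjusted p = 0.122) and was not called. The phosphatase gene Ptpn11, which links gp130 to ERK signalling, was the member that fell, at -1.14, with other probes at -0.13 and -0.57. Il6st, Lifr and Ptpn11 lost the call with each RNA a sample.

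Measured genes of the 2-cell embryo, a programme that small subsets of ES cells switch on, were mostly higher. Of 20 listed genes only 10 were measured, of which 9 rose and none fell (0), 5 of them in both fits, with a median of 1.92. Zscan4c, which acts on telomeres, had wild-type levels of 9.39 to 9.64 and null levels of 12.92 and 13.10 in 27G5 and 12.64 and 12.76 in 27H10, a ratio of 3.32 ± 0.20 with no overlap. PRAME-like genes, leucine-rich repeat genes of early embryo and germ line, rose at 7 of 8 measured (3 in both fits), with a median of 1.31 (1.64 in 27G5 and 0.81 in 27H10). Pramel37 and Pramel39 rose by 2.06 and 1.99 with little spread. Pramel7 was at 3.31 in 27G5 and 1.04 in 27H10, and its call was lost without 27G5 and with each RNA a sample. Many members of these families are near-identical, so a probe may read several of them. The filter also kept a probe that was well above background in Dicer-null cells alone. A gene dim in wild type could thus be counted because it was high in null cells, so the shares that rose are descriptions and not tests.

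Several outputs of the FGF and ERK pathway, a main signal driving ES cells out of self-renewal, fell. Fibroblast growth factors bind receptors that activate the ERK kinase cascade, and the Sprouty and dual-specificity phosphatase (Dusp) genes are transcribed in response and restrain the pathway. Of 31 measured genes 15 fell and 4 rose (7 and 0 with each RNA a sample), with a median of -0.43 (-0.58 in 27G5 and -0.18 in 27H10). Dusp4, an Erk phosphatase, had wild-type levels of 12.42, 12.29, 12.33 and 12.31 and null levels of 9.75 and 9.59 in 27G5 and 9.81 and 9.67 in 27H10. The groups stood more than 2 log2 units apart, a ratio of -2.63 ± 0.08. Spry4 fell from between 10.89 and 11.25 to 8.78 and 9.05 in 27G5 and 9.30 and 9.46 in 27H10, a ratio of -1.93 ± 0.35, although a second probe read -0.42. Spry2 and Spry1 fell by 1.46 (second probe -0.61) and 1.1, Dusp6 by 1.51 ± 0.60, and the Ets factor gene Etv4 by 1.84. Without 27G5 the last pair were not called, at -1.08 and -1.65.

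Some ligands and a receptor of the pathway fell as well, while several of its kinase genes were not called. Fgf5, a marker of the primed epiblast, fell by 2.39 ± 0.36, Fgf8 by 1.06 and the receptor gene Fgfr2 by 0.95, with second probes at -0.21 and -0.44 for the last pair. The kinase genes Braf and Map2k1 were not called, at -0.23 and 0.15. Myc fell by 1.52 ± 0.54, at -1.90 in 27G5 and -1.14 in 27H10, and either clone alone gave no call. The members that rose were the Ets factor gene Etv1 at 1.09, the immediate early genes Egr1 and Fos at 1.00 and 0.91 and the exchange factor gene Sos1 at 0.86 (second probe 0.03). Egr1 lost its call without 27G5 (0.67 left), Sos1 without 27H10 (0.80 left) and Fos when either was left out (0.67 in 27G5 and 1.14 in 27H10). Spry2, Dusp6, Myc and these 4 lost the call with each RNA a sample. Of 17 genes of the primed epiblast and neuroectoderm, 4 rose and 6 fell (0 and 3 with each RNA a sample); Pou3f1, a factor of the primed state, fell by 2.63 ± 0.34, with its wild-type spot saturated on 2 arrays.

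**Figure D4:**
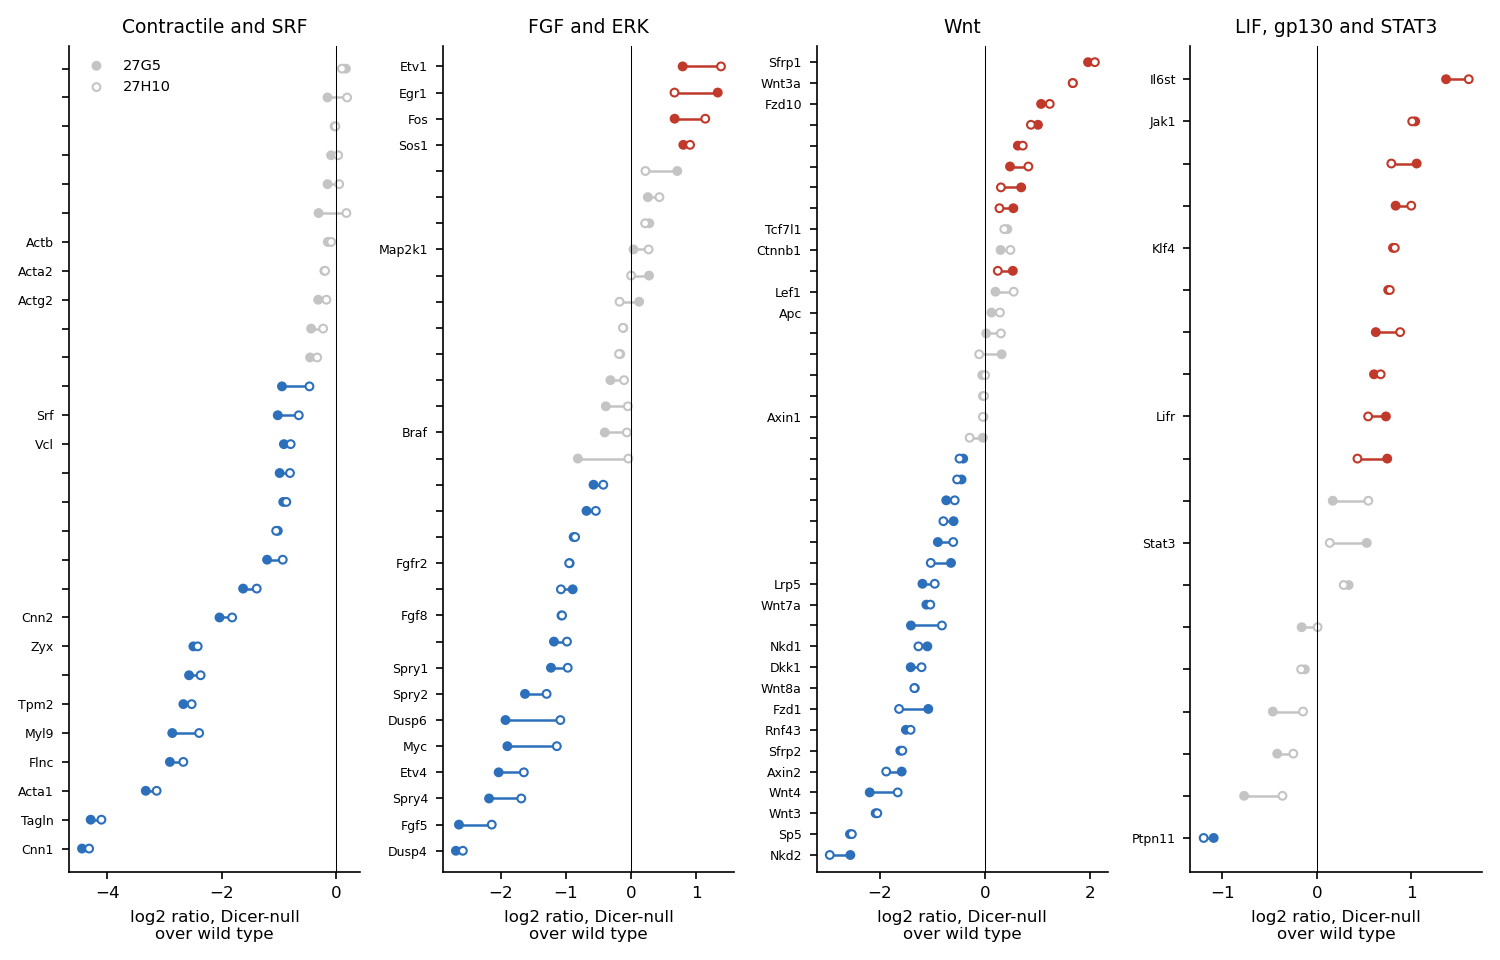
Log2 ratio, Dicer-null over wild type, of each measured member of 4 gene lists, with 27G5 as filled and 27H10 as open circles joined by a line, and with the genes named in the text labelled. Red genes rose, blue genes fell and grey genes were not called: the contractile list has 17 genes that fell and 0 that rose, the FGF list 15 and 4, the Wnt list 20 and 9, and the LIF list 1 and 10.

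Wnt signalling, in which secreted Wnt proteins bind Frizzled and Lrp receptors and stabilise beta-catenin, had several feedback genes that fell. Of 39 measured genes 20 fell and 9 rose (9 and 1 with each RNA a sample), with a median of -0.45. Among genes that beta-catenin induces, Sp5 had wild-type levels of 11.93, 11.86, 11.95 and 11.88 and null levels of 9.30, 9.36, 9.44 and 9.33. The groups did not overlap, a ratio of -2.55 ± 0.03. Axin2, a negative regulator induced by the pathway, went from wild-type levels of 9.50 to 9.56 to null levels of 7.83 and 8.06 in 27G5 and 7.62 and 7.71 in 27H10, a ratio of -1.73 ± 0.21. The inhibitors Nkd2 and Nkd1 fell by 2.75 ± 0.28 and 1.18, with Nkd2 at -0.74 on a second probe, and the Frizzled-degrading ligase gene Rnf43 fell by 1.46 ± 0.06.

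Wnt ligands moved in both directions. Wnt3 fell by 2.06 ± 0.02 (a second probe read -3.03), Wnt4 by 1.92, Wnt8a by 1.34 and Wnt7a by 1.07. Wnt3a rose from wild-type levels of 7.20 to 7.48 to null levels of 8.96, 8.97, 9.05 and 9.02, a ratio of 1.67 with an SD of 0.00. Receptor genes Fzd1 and Lrp5 fell by 1.35 and 1.07, while Fzd10 rose, a call lost when either clone was left out (1.07 and 1.24). The secreted antagonist Sfrp1 rose by 2.03 (1.46 at a second probe) and Sfrp2 fell by 1.59. Core transducers were not called: beta-catenin (Ctnnb1) was at 0.39, Apc at 0.21, Axin1 at -0.03, Tcf7l1 at 0.40 and Lef1 at 0.38. Axin2, Nkd1, Fzd1, Fzd10, Lrp5 and Sfrp1 lost the call with each RNA a sample, and Axin2 without 27H10, which left -1.58.

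In the TGF-beta superfamily, several Nodal-branch genes rose and several outputs of BMP signalling fell. Of 39 measured genes 13 rose and 15 fell (4 and 5 with each RNA a sample), with a median of -0.17 (-0.15 in 27G5 and -0.09 in 27H10). Id1, a direct output of BMP signalling, had wild-type levels of 14.55, 14.41, 14.57 and 14.41, null levels of 11.61 and 11.64 in 27G5, and 12.54 and 12.39 in 27H10. Both clones lay below wild type, 27G5 further, a ratio of -2.44 ± 0.59 that a second probe repeated (-2.43). Id3, Id2 and the ligand Bmp4 fell by 1.42, 1.35 and 1.55, while Id4 rose by 1.24. On the Nodal side, the activin subunit gene Inhbb rose from levels of 9.39 to 9.71 to 11.76 and 12.01 in 27G5 and 12.58 and 12.67 in 27H10, a ratio of 2.71 ± 0.48, with 0.68 at a second probe. The ligand genes Gdf3 and Nodal rose by 1.30 and 0.65, and the activin subunit gene Inhba, not above background in null cells, was at least 2.32-fold lower. All 3 TGF-beta ligand genes fell, Tgfb2 by 1.66, Tgfb3 by 1.28 and Tgfb1 by 1.08. Id3, Id2, Inhbb, Gdf3, Nodal and Tgfb1 lost the call with each RNA a sample. So did Id3 when either clone was left out (-1.55 and -1.28), Bmp4 without 27G5 (-1.14 left) and Nodal without 27H10 (0.56 left).

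Notch receptors and their targets did not move together. Of 20 measured genes 4 rose and 6 fell (2 and 4 with each RNA a sample), with a median of -0.07 (0.02 in 27G5 and -0.10 in 27H10). The receptor gene Notch4 had wild-type levels of 9.85 to 9.92 and null levels of 12.13, 12.10, 12.09 and 12.24, far from overlap, a ratio of 2.26 ± 0.04. Notch1 rose by 1.1 and Notch3 fell by 1.32. Hes5, a target repressor, fell from 8.61, 8.62, 8.62 and 8.70 to 6.84 and 7.29 in 27G5 and 6.92 and 7.0 in 27H10, a ratio of -1.62 ± 0.11. Hes1, another target, rose by 0.85, and Hey1 fell by 1.36. Both lost the call with each RNA a sample and when either clone was left out, with Hes1 at 0.92 and 0.78 and Hey1 at -1.45 and -1.26.

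Genes listed as contractile or regulated by serum response factor (Srf) were lower or not called, and none (0) rose. Srf drives such genes when actin polymerises, through a promoter element called the CArG box. The list holds smooth-muscle, skeletal and nonmuscle genes, adhesion genes and Srf itself. Of 28 measured genes 17 fell and 0 rose, 13 of them in both fits, with a median of -0.87. The calponin gene Cnn1 had wild-type levels of 13.46, 13.46, 13.53 and 13.43 and null levels of 9.19 and 8.85 in 27G5 and 9.39 and 8.94 in 27H10. The actin cross-linker Tagln went from 15.81, 15.25, 15.73 and 15.17 to 11.50, 10.98, 11.55 and 11.15, and a second probe read -3.56. Wild type was above the null cells by about 4 log2 units in each array, ratios of -4.38 ± 0.09 and -4.20 ± 0.13, and the wild-type Tagln spot was saturated on 2 of 4 arrays.

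Several adhesion and thin-filament genes of the list fell too. The skeletal actin gene Acta1 fell by 3.23 ± 0.13, the filamin gene Flnc by 2.79 ± 0.17 (other probes -0.11, -2.5 and -0.57), the myosin light chain gene Myl9 by 2.63 ± 0.33 and the tropomyosin gene Tpm2 by 2.60 ± 0.10. Zyx, encoding the focal adhesion protein zyxin, had wild-type levels of 14.65, 14.66, 14.60 and 14.54 and null levels of 12.29, 12.02, 12.35 and 11.96, a ratio of -2.46 ± 0.05. Srf itself fell by 0.83 ± 0.26, a call lost with each RNA a sample and without 27G5, which left -0.65. Nonmuscle and smooth-muscle actin genes Actb, Actg2 and Acta2 were not called, at -0.11, -0.24 and -0.19, but 2 of the other 3 Acta2 probes read -3.26 and -2.75. At the brightest Acta2 probe the arrays of 1 clone differed in sign: 0.26 and 0.13 on the first array of each clone and -0.66 and -0.51 on the second.

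The 250 bases before the start of these genes were searched for the CArG box on both strands, in RefSeq promoters of build GRCm38.p6. Of 23 listed genes with a promoter entry, 5 held it (Acta1, Cnn2, Myl9, Srf and Vcl), and all 5 fell, while 10 of the 18 without it fell. Among all 32851 promoter entries 482 held it (1.47%). Of the 185 tested genes with the box in the same window, 43 rose (23.2%) and 41 fell (22.2%), with a median of 0.02, close to the values of all genes. The promoters of 3 genes that fell are printed with the box in capitals, 1 box in Acta1 and Cnn2 and 2 in Srf. A match of letters is a description, not a binding site, and Vcl lost its call with each RNA a sample and when either clone was left out.
Acta1 promoter (chr8:123894776-123895025, minus strand): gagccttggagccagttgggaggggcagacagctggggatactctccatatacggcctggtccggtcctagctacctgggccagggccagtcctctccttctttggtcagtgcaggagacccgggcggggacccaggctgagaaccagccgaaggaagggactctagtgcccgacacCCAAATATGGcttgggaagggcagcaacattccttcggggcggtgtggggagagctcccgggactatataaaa
Cnn2 promoter (chr10:79988350-79988599, plus strand): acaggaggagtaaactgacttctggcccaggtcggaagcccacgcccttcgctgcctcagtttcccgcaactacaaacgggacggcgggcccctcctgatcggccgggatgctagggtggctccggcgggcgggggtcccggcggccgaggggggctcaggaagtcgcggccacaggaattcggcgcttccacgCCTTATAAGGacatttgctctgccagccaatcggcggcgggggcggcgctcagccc
Srf promoter (chr17:46556163-46556412, minus strand): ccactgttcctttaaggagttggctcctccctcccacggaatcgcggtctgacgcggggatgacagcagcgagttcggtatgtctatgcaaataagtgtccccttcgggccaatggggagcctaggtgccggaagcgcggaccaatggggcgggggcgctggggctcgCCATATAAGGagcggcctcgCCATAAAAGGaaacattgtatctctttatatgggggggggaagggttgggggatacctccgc

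Targets of Yap and Tead, which also respond to actin tension, were lower in part. Of 16 measured, 7 fell and 1, Lats2, rose, with a median of -0.59, and 2 of the 7 kept the call with each RNA a sample. Thbs1, encoding thrombospondin, fell by 2.20 ± 0.36 (other probes -1.30 and -0.92) and Tgfb2 by 1.66 ± 0.06. Amot, encoding the Yap-binding protein angiomotin and outside that list, fell by 3.01 ± 0.24, and Fhl2, a cofactor of Srf, by 3.0 ± 0.26, a call lost without 27G5, which left -2.82. The classical targets Ccn1 and Ccn2 were not called, at -0.96 and -0.55.

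Markers of fibroblasts moved in the same direction as the contractile genes. Of the 8 fibroblast markers, 7 were tested, and all 7 were well above background on 4 of 4 arrays in wild type; in null cells 5 were, and Col3a1 and Postn were on 0 arrays. The log2 of their summed signal, over the same probes in each channel, was 13.04 to 13.14 in wild type and 11.19 to 11.51 in null cells. Col1a1 was the brightest of them in wild type, at a mean level of 12.28 against 8.19 in null cells, and so weighs most in the sum. Its other probes, given with the collagens below, moved less. Of these markers 6 fell and 1, Dcn, rose by 2.02. Trophoblast markers were also lower in sum, 14.10 to 14.25 in wild type against 12.73 to 12.90, with 4 lower and 1 higher of 7. The keratin gene Krt7 was the brightest of these in wild type, at a mean level of 13.47 against 11.12 in null cells. It therefore weighs most in that sum. Tfap2c and Prl3d1 were not called, at -0.15 and -0.09, and Elf5 was the marker that rose, by 0.79. Primitive endoderm markers summed to 10.03 to 10.18 against 9.54 to 9.77. The sums overlapped for mesoderm (10.17 to 10.50 against 10.21 to 10.39) and neuroectoderm (13.32 to 13.38 against 12.97 to 13.40). The part that cells of the fibroblast or trophoblast type may have in the contractile, collagen and surface results was not tested.

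**Figure D5:**
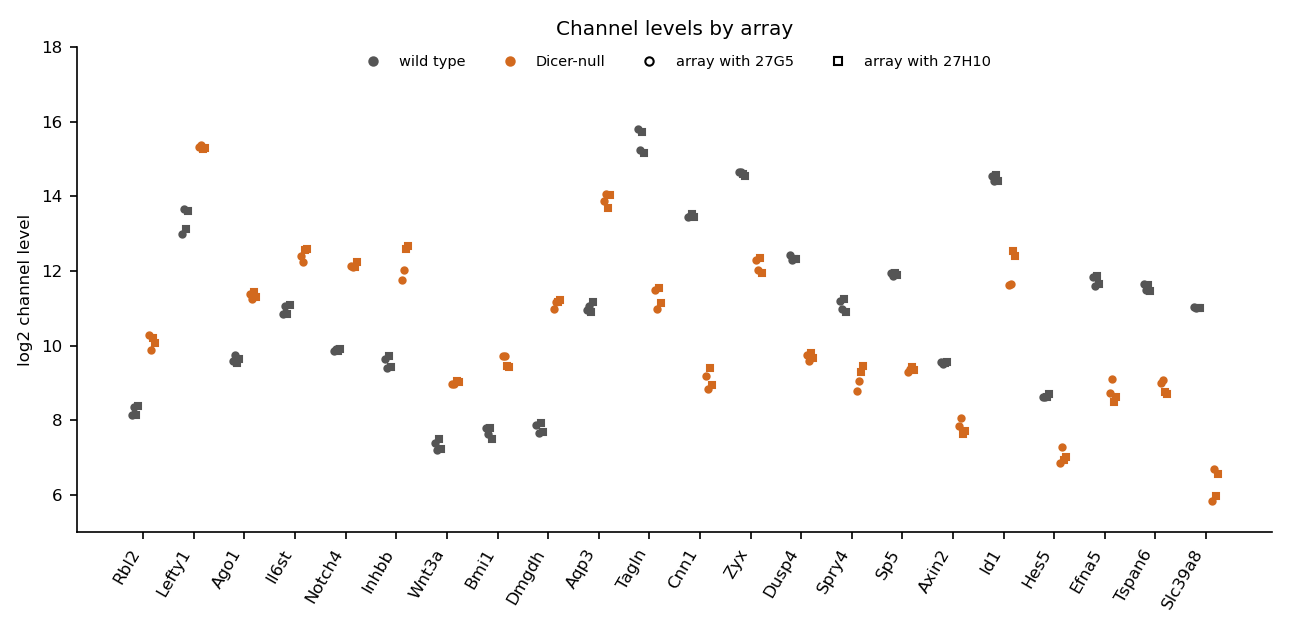
Log2 level of the wild-type (grey) and Dicer-null (orange) channel on each of the 4 arrays for 22 genes described in the text, with circles for arrays with 27G5 and squares for arrays with 27H10. In each gene shown, the null levels lie wholly above or wholly below the wild-type levels, and levels of different genes are not comparable because each is read by its own probe.

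Tetraspanins, ephrins and Eph receptors, semaphorins and collagens were lower more often than higher, but not every surface or matrix family was. Of 10 laminins 3 rose and 2 fell (1 and 1 with each RNA a sample), and of 41 Adam and Adamts proteases 7 rose and 7 fell (3 and 5). Of 27 integrins 5 rose and 7 fell (0 and 3), of 14 claudins 2 and 4 (0 and 1), and of 14 protocadherins 0 and 4 (0 and 3). Of 17 tetraspanins, membrane proteins that organise adhesion receptors, 12 fell and 2 rose (4 and 1 with each RNA a sample), with a median of -0.91. Tspan6 had wild-type levels of 11.65, 11.48, 11.63 and 11.47 and null levels of 9.0 and 9.08 in 27G5 and 8.75 and 8.71 in 27H10, a ratio of -2.67 ± 0.21 that its other probe repeated (-2.67). Tspan7, Tspan12, Tspan4 and Tspan18 fell by 2.49, 2.18, 1.63 and 1.41. Tspan1 went the other way, from between 9.09 and 9.24 to between 12.48 and 12.69, a ratio of 3.42 ± 0.02 (2.62 at a second probe). Tspan6, Tspan7 and Tspan12 lost the call with each RNA a sample, and Tspan12 without 27H10, which left -1.81.

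Of 19 ephrins and Eph receptors, which guide cells by contact, 12 fell and 2 rose (4 and 1 with each RNA a sample), with a median of -0.43. The ligand gene Efna5 had wild-type levels of 11.83, 11.59, 11.87 and 11.66 and null levels of 8.73, 9.11, 8.50 and 8.61, a ratio of -3.0 ± 0.30, but its second probe read -0.15. The receptor gene Epha1 fell by 2.63 ± 0.12 and Efnb1 by 1.35 ± 0.10, while Epha4 rose by 1.42 ± 0.23. Of 18 semaphorins, secreted or membrane guidance proteins, 8 fell and 2 rose (3 and 1 with each RNA a sample), with a median of -0.15 (-0.02 in 27G5 and -0.33 in 27H10). Sema3e was at -2.09 ± 0.03 (other probes -1.57 and -1.06) and Sema7a at 1.65 ± 0.23. Of 35 collagens 15 fell and 4 rose (9 and 1 with each RNA a sample), with a median of -0.24. The fibrillar chain gene Col1a1 fell by 4.09 ± 0.13 (other probes -1.67 and 0.01), Col7a1 by 2.40 and Col1a2 by 2.34, while the hemidesmosome collagen gene Col17a1 rose by 1.4 (0.73 at a second probe). Col3a1, not above background in null cells, was at least 2.78-fold lower. Serpinh1, the collagen chaperone, fell by 2.22 ± 0.18.

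Ranks 11 to 13 by log2 ratio were Dmgdh, Megf11 and Bhmt2, of which Dmgdh and Bhmt2 act in the breakdown of choline and betaine. Dmgdh had wild-type levels of 7.87, 7.67, 7.92 and 7.67 and null levels of 10.99 and 11.17 in 27G5 and 11.16 and 11.21 in 27H10, a ratio of 3.35 ± 0.06. Bhmt2 went from 8.42, 8.07, 8.34 and 8.05 to 11.45, 11.78, 11.29 and 11.67, a ratio of 3.33 ± 0.06. Bhmt, its close relative, rose by 2.88 ± 0.15. The null cells were about 3 log2 units higher for all 3, and their probes lie near each other on chromosome 13 (mm7), at chr13:90683020-90683079 for Bhmt, chr13:90719345-90719404 for Bhmt2 and chr13:90815551-90815610 for Dmgdh. They are not among the runs of consecutive tested genes described below. Bhmt was named after its values were seen.

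Aqp3, a water and glycerol channel, went from wild-type levels of 10.96, 11.05, 10.91 and 11.16 to null levels of 13.87, 14.07, 13.70 and 14.03, a ratio of 2.90 ± 0.09. Abcb11, a bile salt pump, rose by 2.98 ± 0.39, a call lost with each RNA a sample. Apom, a lipoprotein component, rose by 2.92 ± 0.02, Ephx2, an epoxide hydrolase, by 2.95 ± 0.07 and the renin gene Ren1 by 2.89 ± 0.27 (1.62 at a second probe). Calcoco2, an autophagy receptor, rose by 3.01 ± 0.08. The null spot was saturated on 2 of 4 arrays for Ephx2 and on 1 for Calcoco2. Still in these ranks, the antiviral gene Zc3hav1 rose by 2.90 ± 0.25 (other probes 0.35 and 2.11), the homeobox gene Vax2 by 3.00 ± 0.08 and the adenylate kinase gene Ak7 by 2.99 ± 0.00. The remaining genes of these ranks were Zscan4c, C1qtnf9, Fthl17e, Efhb, Rasgef1a, Lrrn2, Txlnb and Efhc2, between 2.91 and 3.32, of which Rasgef1a and Efhc2 lost the call with each RNA a sample and Lrrn2 and C1qtnf9 read 0.56 and 1.71 at second probes.

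The same ranks among genes that fell are given next. Plac8 was at -3.34 ± 0.47, with levels of 13.29 to 13.84 in wild type, 9.93 and 9.85 in 27G5 and 10.59 and 10.60 in 27H10. The VEGF receptor gene Flt1 was at -3.27 ± 0.15 (other probes -2.25 and -1.91), the hyaluronan synthase gene Has2 at -2.99 ± 0.06 (second probe -1.36) and the glycosyltransferase gene Galnt14 at -3.29 ± 0.14. The myelin gene Pmp22 was at -3.18 ± 0.16, the growth cone gene Gap43 at -3.11 ± 0.25 and the axonal motor gene Kif1a at -3.05 ± 0.00 (second probe -1.39). The carbonic anhydrase gene Car4 was at -3.10 ± 0.12, the sulfotransferase gene Chst1 at -3.04 ± 0.16 and the GTPase gene Arl4c at -2.93 ± 0.27 (second probe -1.46). Asphd2, Fndc3c1, Armcx2, Pgap4 and Wdr86 lay between -3.23 and -2.99.

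Some genes were above background in 1 cell type alone. There were 147 genes well above background on 4 of 4 arrays in null cells and on none (0 of 4) in wild type (0.761% of those tested), 120 of them called, and 108 of the reverse (0.559%), 107 of them called. For these, a fold is a lower bound against the dimmest signal well above background on each array, or against the gene's own dim level where that was higher. Slc39a8, a zinc importer, had wild-type levels that averaged 11.02, the highest at 11.05, and null levels of 5.84, 6.69, 5.96 and 6.56, not above background, so it was at least 24.3-fold lower. Its second probe read -2.05, and that of Mcoln3, next, -0.75. The GTPase activator gene Arhgap6, the lysosomal channel gene Mcoln3, the peptide gene Nts, the potassium channel gene Kcnj3 and the mechanosensitive channel gene Piezo2 were at least 4.32-fold, 4.16-fold, 4.04-fold, 3.42-fold and 3.26-fold lower. In the other direction, Sash3, a lymphocyte adaptor gene, and Cd3g, a T cell receptor subunit gene, were at least 2.82-fold and 2.28-fold higher, and Lrrn3 at least 2.39-fold. Sash3 lost the call with each RNA a sample.

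The genes with the highest moderated statistic, the ratio over its error, included the following. Myof, encoding a membrane repair protein, rose from wild-type levels of 12.10, 12.35, 12.11 and 12.38 to null levels of 14.73, 14.66, 14.68 and 14.72, a ratio of 2.46 ± 0.01 (other probes 2.42 and 1.1). The granule proteoglycan gene Srgn rose by 2.45 ± 0.13, the mitochondrial pyruvate carrier gene Mpc1 by 2.24 ± 0.07, the chromatin gene Hp1bp3 by 2.10 ± 0.10 (second probe 0.79) and the transcription factor gene Nfib by 1.94 (other probes 1.16 to 1.97). Phldb2, which anchors microtubules at the cell edge, fell by 2.79 ± 0.01 (second probe -1.84). The mesoderm gene brachyury fell by 2.46 ± 0.01.

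More genes fell than rose in the trophoblast, primitive endoderm, and primitive streak and mesoderm lists, but not in every lineage list. Of 28 neuronal cytoskeleton and synapse genes 11 rose and 8 fell (3 and 5 with each RNA a sample), with a median of 0.28. Of 29 germline genes 8 rose and 4 fell (3 and 1), with a median of 0.10. Of 19 trophoblast genes 9 fell and 1 rose (5 and 0 with each RNA a sample), with a median of -0.41 (-0.40 in 27G5 and -0.80 in 27H10). The keratin gene Krt7 fell by 2.35, and Krt18 and Krt8 fell with their wild-type spots saturated on 4 and 2 of 4 arrays. Cdx2, a trophoblast master gene, fell by 2.10 ± 0.43 and was above background on 2 of 4 null arrays. Of 18 primitive endoderm genes 8 fell and 3 rose (5 and 0 with each RNA a sample), with a median of -0.28 (-0.08 in 27G5 and -0.47 in 27H10), Gata6 at -1.1 (lost with each RNA a sample) and Sox7 at -1.07. Other endoderm markers, Gata4, Pdgfra, Sox17 and Foxa2, were not called, at 0.16, 0.18, -0.33 and -0.23. Of 14 primitive streak and mesoderm genes 6 fell and 4 rose (6 and 4 with each RNA a sample), the last being Evx1 at 1.73, Wnt3a at 1.67, the VEGF receptor gene Kdr at 1.67 and Gsc at 1.44. Of 32 imprinted genes, expressed from 1 parental copy, 17 fell and 4 rose (12 and 2 with each RNA a sample), with a median of -0.70. Phlda2, Igf2, Magel2 and Cdkn1c fell by 2.79, 2.69, 2.69 and 2.66, and Plagl1 rose by 2.46, with second probes at -2.25 for Phlda2, -3.49 for Igf2 and 1.37 for Plagl1.

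Antiviral genes rose more often than they fell. Of 35 interferon response and MHC class I genes 14 rose and 5 fell (7 and 1 with each RNA a sample), with a median of 0.16 (0.16 in 27G5 and 0.30 in 27H10). Of 7 listed oligoadenylate synthetase genes, whose family activates RNA decay on sensing double-stranded RNA, 6 rose: Oas2 by 2.46 ± 0.32 (0.39 at a second probe), Oas1a by 2.28 ± 0.08 and Oasl1 by 1.82 ± 0.09, with Oas1b, Oas1g (not above background in wild type) and Oas3 (second probe 0.06). Oasl2 was not called, at -0.23 in 27G5 and 0.30 in 27H10. Irf9, a component of the interferon-activated factor, rose by 1.83. The ubiquitin-like gene Isg15 fell by 1.48 ± 0.12, and the class I genes B2m and H2-K1 fell by 0.84 and 0.75, calls lost with each RNA a sample and when either clone was left out (-0.89 and -0.80, -0.79 and -0.72). Of Polycomb genes, which encode repressors of developmental loci, 7 of 22 rose and 3 fell (4 and 1 with each RNA a sample), with a median of 0.24. Bmi1, a subunit of Polycomb repressive complex 1, had wild-type levels of 7.80, 7.64, 7.80 and 7.51 and null levels of 9.72 and 9.72 in 27G5 and 9.44 and 9.41 in 27H10, a ratio of 1.89 ± 0.16. Ezh1 rose by 1.27 ± 0.15, while Ezh2 and Eed were not called, at 0.24 and -0.06.

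Cell-cycle inhibitors moved in both directions. Of 29 G1/S regulators 8 rose and 9 fell (2 and 4 with each RNA a sample), with a median of 0.05 (0.18 in 27G5 and 0.04 in 27H10). The inhibitor gene Cdkn1a rose by 1.32, as did Rbl2 (1.85), while Cdkn1c, of the same kinase inhibitor family as Cdkn1a, fell by 2.66. Of 32 DNA replication genes 2 rose and 6 fell (0 and 1 with each RNA a sample), all within 1 log2 unit of wild type. Of 26 mitosis genes 9 rose and 1 fell, none (0) of them in the fit with each RNA a sample, with a median of 0.17. Of 29 genes of the Bcl2 family and apoptosis, 11 fell and 3 rose, with a median of -0.22, Bok at -1.51, Bcl2 at -1.05 and Casp2 at 1.19, and 1 of the 14 kept its call with each RNA a sample.

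Housekeeping families, and some other large families, differed in how many genes were called. Of 80 cytosolic ribosomal protein genes 11 rose and 4 fell (0 and 0 with each RNA a sample), with a median of 0.10. Of 43 proteasome subunits 3 rose and 4 fell (0 and 1), and of 8 subunits of the chaperonin CCT none (0) was called, over a range of -0.12 to 0.17. Of 76 mitochondrial ribosomal proteins 10 rose and 14 fell (1 and 4), and of 44 subunits of respiratory complex I 12 rose (27.3%) and 2 fell (0 and 0), with a median of 0.10 (0.18 in 27G5 and 0.09 in 27H10). Of 300 solute carriers 63 rose and 66 fell (15 and 22), shares of 21% and 22% that were near those of all genes (20.4% and 20.2%). Of 315 Zfp zinc finger genes 67 rose and 81 fell (13 and 14), or 21.3% and 25.7%. Of the metallothionein genes, whose products bind zinc and copper, Mt1 and Mt2 rose, Mt1 at 0.98 (1.55 at a second probe) and Mt2 at 1.02 (saturated on 2 of 4 arrays in each channel), whereas Mt3 fell by 0.88.

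Neighbouring genes sometimes changed together. Among 18969 genes with a position, 23 runs of at least 3 consecutive tested genes were called in 1 direction with log2 ratios of 1 or more, 13 higher and 10 lower. The longest held 6 oligoadenylate synthetase genes (Oas2, Oas3, Oas1e, Oas1c, Oas1b and Oas1f) between 1.27 and 2.48, at chr5:119964411-120091965 (mm7). Kiss1, Ren1, Ren2 and Etnk2 rose by 1.66 to 3.45 at chr1:133230321-133281205. Among runs that fell, Abhd8, Mrpl34 and Dda1 at chr8:69924219-69943042 lay beside Gtpbp3, Plvap and Bst2 at chr8:69960284-70001925. Genes of 1 run that are near-identical copies, such as the Oas1 and renin genes, may share probe signal. Some runs also count transcript entries without a gene name, such as TC1530331 beside Efna5 and AK046232 beside Serpine2. Whether such entries are separate genes was not examined. Kiss1 and Bst2 lost the call when either clone was left out (2.40 and 1.52, -1.21 and -1.03). On chromosome 8, 15.8% of 962 genes rose and 28% fell, the highest share of genes that fell on any chromosome, with a median of -0.08 (-0.09 in 27G5 and -0.07 in 27H10). Chromosome 11 had a median of 0.16 in 27G5 and -0.0025 in 27H10.

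The same test was run on the authors' deposited log2 ratios. In them, 3965 genes rose and 3889 fell in the same test. Rbl2 was at 2.13, with 2.10 in 27G5 and 2.16 in 27H10, and Dicer1 at -0.59 at its brighter probe.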

How the data were processed

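Each array compared 2 labelled RNAs, in red (Cy5) and green (Cy3). The authors' deposited scanner files hold intensity values from Agilent Feature Extraction 9.1.3.1, per the file headers, with a log10 red over green ratio. The authors' deposited series table holds log2 ratios, already turned to Dicer-null over wild type, which correlated at 0.996 to 1.00 with the scanner ratios; how they were centred is not given in the sources used here, and the medians of its 4 columns were -0.13, 0.11, -0.10 and -0.02.

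From the mean and background intensities, ratios were computed with limma 3.58.1 in R 4.3.3 (normexp, offset 50, then loess within arrays, with control spots left out), and the scanner log10 ratio and the series table served as alternatives. Dye-swapped arrays were turned and averaged, so each clone gave 1 ratio. Genes were tested on the 6 ratios of the series, with 3 residual degrees of freedom and the brightest probe standing for a gene. A probe was kept if present on all 12 arrays and well above background on both arrays of at least 1 pair in 1 channel. Same-numbered arrays share a dye orientation, and their deviations from the mean correlated at 0.718 to 0.946, so the array number was also tried as a block. Positions are on mm7, which the headers of the other arrays of this chip name. A check on simulated data used the residual spread of the real fit, and its outcome is not reported here.

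Members and gene lists were chosen with earlier results of these data known. Genes were named by rank (11 to 30 in each direction), by role and by the largest moderated statistic of each list and family; others were named after their values were seen, and some genes these rules pick are not reported here. The planned search of transcripts for seed matches was made in probes. The array number limits the precision.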

Additional observations from a re-analysis of the deposited data

Results flagged for a closer look

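In some lists the median lay on opposite sides of 0 in the 2 clones, or both medians were close to it. These differences between clones were not tested, and both clones share the wild-type RNA. The median of fatty acid synthesis genes was 0.12 in 27G5 and -0.12 in 27H10. Genes of amino acid and unfolded protein stress had medians of 0.16 and -0.10, and the Rhox homeobox genes 0.32 and -0.13. For the Notch pathway the medians were 0.017 and -0.10, for mitochondrial ribosomal proteins 0.011 and -0.078, and for miRNA biogenesis and silencing -0.091 and -0.00041. Over all genes, 872 (4.51%) had opposite signs in the 2 clones on all arrays, none (0) of them called by limma, and 6 had clones at least 1 log2 unit apart, among them Plbd1 at 1.11 and -0.56.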

How the results depend on the processing

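Counts of genes that rose and fell stayed within 1.5 times the reported ones under the authors' values (3965 and 3889), other background, scaling, filter and probe rules. With the array number as a replicate block they were 4582 and 4525. With each RNA a sample they were 932 and 966, and without 1 clone 1584 to 1678 and 1467 to 1726. Median centring without loess gave 3463 and 3983, so 46.5% of calls were higher in place of 50.2%. Of 380 called genes described or listed, 109 lost the call with each RNA a sample, 60 without 27G5 and 52 without 27H10, and 371 kept it under every other alternative. The sign of 1 called gene turned: Xpo5 was at -0.020 as a mean over probes. The block lost 2 of these calls. None (0) of 16 group medians of at least 0.3 in size changed sign. Slide could not be fitted as a block, since all 4 arrays lay on 1. The wild type was 1 RNA.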
